A study of Mus musculus with 38 samples.

Results

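The 9 genes described here, out of 54165 in the count table, encode scaffold proteins of the excitatory postsynapse: Shank1, Shank2, Shank3, Dlg2, Dlg3, Dlg4, Dlgap1, Dlgap3 and Homer1. They were taken by gene symbol, from a list chosen with earlier results of these data known. Reads were counted in bulk RNA-seq libraries of adult FVB/NJ mice, 20 from the prefrontal cortex (PFC, taken as micropunches) and 18 from the hypothalamus (Hypo, excised whole). Ube3a2X mice were homozygous for a Ube3a transgene that adds to their own gene whichever parent it came from, and wild-type (WT) littermates served as controls. Ube3a encodes a ubiquitin ligase and lies in the chromosomal interval duplicated in dup15q syndrome, whose features include autism. The PFC held 5 libraries in each of the groups WT female, Ube3a2X female, WT male and Ube3a2X male, and the Hypo held 4, 5, 4 and 5 of them. Libraries were grouped by their labels, which list more WT libraries for the PFC than the methods of the study describe. The Ube3a2X mice came from 1 purchased line, and the labels name no other treatment in either genotype. Each library came from 1 mouse, 13 mice gave both tissues, and libraries are named below by tissue, genotype, sex and mouse number.

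The postsynaptic density is the protein mesh under the membrane of an excitatory synapse that holds glutamate receptors in place. In it, Dlg proteins (the PSD-95 family of membrane-associated guanylate kinases) bind receptors at the membrane, SAPAP proteins (encoded by Dlgap genes) link them to SHANK proteins deeper in the mesh, and Homer proteins join SHANK to metabotropic glutamate receptors and calcium stores. SHANK genes are well-known risk genes for autism, Shank3 most of all. Homer1 also gives a short transcript, Homer1a, induced by neuronal activity, and the counts per gene used here sum over all its transcripts.

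In the mouse GENCODE vM21 annotation of GRCm38, all 9 are protein-coding genes on the forward strand. Shank1 lies at chr7:44310253-44360572, Shank2 at chr7:144001928-144424494, Shank3 at chr15:89499623-89560261, Dlg2 at chr7:90476672-92449247 and Dlg3 at chrX:100767722-100818410. Dlg4, which encodes PSD-95, lies at chr11:70016942-70047522, Dlgap1 at chr17:69969073-70821413, Dlgap3 at chr4:127169204-127237022 and Homer1 at chr13:93299635-93405129. Other annotated genes overlap the Dlg2 locus, 22 on the same strand and 8 on the opposite strand, and 2 same-strand genes overlap Homer1 and 1 overlaps Shank1, so reads near them may have been assigned to either gene. The base composition of the transcripts spread widely. The longest transcript of Dlgap3 was 63.9% GC, that of Shank3 62.4% and that of Shank1 61.4%. These lay above 99.6%, 98.8% and 98.2% of the genes tested across both tissues. Homer1 lay at the other end, with 36.9% GC, above 1.23% of genes. Shank2 (55.0%), Dlgap1 (50.9%), Dlg3 (50.4%), Dlg4 (46.8%) and Dlg2 (44.3%) lay between, around the median of tested genes of 49.4%.

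The promoters of Shank3 and Homer1 are printed because these genes had interaction estimates of opposite sign in the PFC, neither of them called at an adjusted p of 0.05. The sequences are the 250 bases before the RefSeq transcription start on GRCm38.p6, forward strand, at chr15:89499358-89499607 for Shank3 and at chr13:93303507-93303756 for the first Homer1 start. Capitals mark the GC box (GGGCGG or its reverse complement CCGCCC) and the CRE core (TGACGT or ACGTCA), both searched on both strands.
Shank3: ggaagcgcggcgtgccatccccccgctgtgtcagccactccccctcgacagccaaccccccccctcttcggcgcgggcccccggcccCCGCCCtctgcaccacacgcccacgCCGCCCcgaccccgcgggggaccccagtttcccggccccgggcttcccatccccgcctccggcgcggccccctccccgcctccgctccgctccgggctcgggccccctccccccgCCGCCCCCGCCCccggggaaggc
Homer1: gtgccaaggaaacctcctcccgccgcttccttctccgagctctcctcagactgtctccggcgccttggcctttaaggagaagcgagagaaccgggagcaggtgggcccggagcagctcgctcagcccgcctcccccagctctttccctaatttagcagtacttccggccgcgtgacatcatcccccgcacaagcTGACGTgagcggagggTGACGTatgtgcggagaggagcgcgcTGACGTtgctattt
The Shank3 window was 82.4% GC, above 99.4% of all windows, with 4 GC boxes and 0 CRE cores. The Homer1 window was 62.4% GC, above 77.5% of windows, with 0 GC boxes and 3 CRE cores. Among 32851 mouse promoter windows of this length the median was 52.4% GC, 4.09% held 4 or more GC boxes, and 0.152% held 3 or more CRE cores. A second Homer1 window, at a downstream start, was 46.8% GC and held neither motif. The first window of Dlgap3, which had a positive interaction like Shank3, was 46.8% GC, above 29.8% of windows. These matches describe the letters in the window and no binding was measured. Windows were found for 7 of the 9 genes, and Shank1 and Shank2 had none in the table used.

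Ube3a itself separated the genotypes in every library, at 192 to 268 CPM (read counts scaled to a common library size) in WT and 667 to 2175 in Ube3a2X PFC, and at 113 to 360.5 and 752 to 1744 in Hypo, and Xist and Ddx3y placed every library in its labelled sex. Hypothalamic marker genes (7 neuropeptides and transcription factors) summed to 0.56 to 1.19 CPM in PFC and 381 to 2042 in Hypo, and cortical and other excitatory neuron markers to 1886 to 2442 and 305 to 487. Pituitary hormone genes were near 0 in PFC but ranged from 15.6 to 4991 CPM in Hypo. Counted reads ran from 36.9 to 69.1 M per PFC library and from 39.0 to 381 M per Hypo library, and no scaffold gene had fewer than 889 reads in any library, so counting error was small against the spread between mice. Some libraries stood apart in quality. PFC WT female 397 had the highest share of coding bases (51.9%) and the lowest of untranslated bases (40.3%) in its tissue, PFC Ube3a2X female 468 had the most uneven coverage (coefficient of variation 0.717), and Hypo WT female 471 had the lowest coding share (37.5%). PFC Ube3a2X male 258, with the highest level of Shank2, Dlg2, Dlg4 and Dlgap1, had base shares near those of 397 (51.0% coding and 40.8% untranslated) and a coverage coefficient of variation of 0.631. Hypo WT female 262, with the lowest level of Shank1, Shank3 and Dlgap3, had the lowest AT dropout of its tissue (18.3). Values without these libraries are given beside several results.

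To compare levels between the genes, CPM was divided by exon length in kilobases. In PFC, Dlg4 was highest (median 69.6 CPM per kilobase over 20 libraries, range 54.5 to 96.1), followed by Dlgap3 (56.4), Shank1 (55.6), Dlgap1 (51.0), Dlg3 (41.5), Dlg2 (35.9), Homer1 (28.7), Shank2 (25.1) and Shank3 (23.4). Only Dlgap1 and Dlg3, among the 8 neighbouring pairs in this order, differed by more than 2 SD of their difference over libraries, with Dlgap1 above Dlg3 in 20 of 20. In Hypo, Dlg4 was again first (32.1 CPM per kilobase over 18 libraries), then Dlg3 (19.2), Shank1 (15.5), Dlg2 (15.1), Dlgap3 (9.38), Dlgap1 (7.62), Shank2 (7.32), Shank3 (5.62) and Homer1 (3.31). There Dlg4 lay above Dlg3 and Shank3 above Homer1 in 18 of 18 libraries, both by more than 2 SD, and the other 6 neighbouring pairs did not. Dlgap1, Dlgap3 and Homer1 each stood lower in rank in Hypo than in PFC.

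All 9 scaffold genes were higher in PFC than in Hypo, and for none of them did any library of one tissue overlap the other. Among 12494 genes, 32.0% were called higher in PFC, and 13% had every PFC library above every Hypo library. Homer1 differed most, from 199 to 539 CPM (median 343) in PFC and from 22.3 to 55.3 (median 39.6) in Hypo, a difference of 3.07 (SE 0.16) on the log2 scale or 8.41-fold. Dlgap1 ran from 825 to 1302 CPM (median 913) and from 125 to 189 (median 136), a difference of 2.89 (SE 0.085). Its relative Dlgap3 was at 132 to 399 CPM (median 255) against 26.3 to 58.6 (median 42.4), a difference of 2.48 (SE 0.19). The SAPAP linkers and the Homer adaptor thus had the largest differences of the 9.

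The SHANK genes came next. Shank1 was at 423 to 1092 CPM in PFC (median 585) and 123 to 204 in Hypo (median 163), a log2 difference of 2.03 (SE 0.17). Shank2 was at 184 to 408 (median 269.8) and 41.0 to 99.7 (median 78.9), a difference of 1.81 (SE 0.13). Shank3 was at 143 to 349.7 (median 215) and 38.4 to 70.4 (median 51.7), a difference of 1.91 (SE 0.15). The 3 SHANK estimates had overlapping 95% intervals, and their difference from each other was not tested. The Dlg genes, which encode the membrane-proximal scaffolds, had the smallest differences. Dlg2 (PSD-93) was at 475 to 1126 CPM against 121 to 280.0, a log2 difference of 1.5 (SE 0.14). Dlg3 (SAP102) was at 220.1 to 287 against 96.7 to 129, a difference of 1.13 (SE 0.051). Dlg4 was at 723 to 1273 against 368 to 500.0, a difference of 1.11 (SE 0.092). By edgeR's quasi-likelihood test with Benjamini-Hochberg adjustment over 12494 genes, the adjusted p of the 9 genes ran from 3.6e-25 (Dlgap1) to 3.7e-11 (Dlg2).

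**Figure D1:**
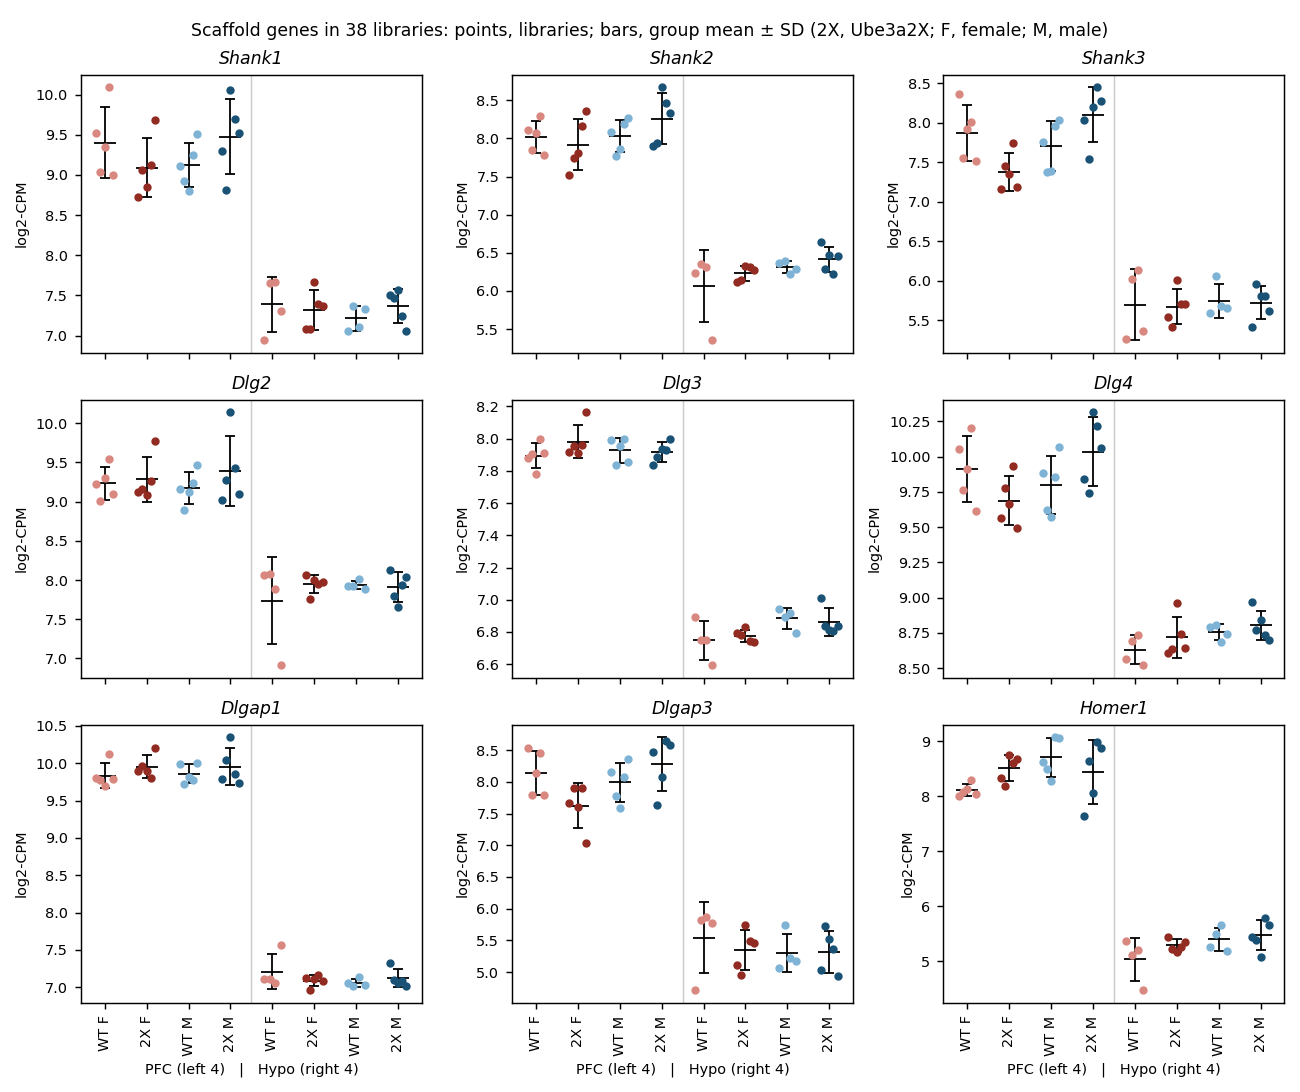
Level of each scaffold gene as log2-CPM in 38 libraries, by tissue, genotype and sex (2X stands for Ube3a2X, F for female, M for male). Points are libraries and bars the group mean ± SD; in every panel the PFC libraries, left of the grey line, lie above all Hypo libraries.

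The difference held within each genotype. In WT mice 9 of 9 genes were called higher in PFC, with log2 differences of 1.11 to 3.12, where 30.1% of all genes were, and in Ube3a2X mice 9 of 9, with 1.06 to 3.03, where 29.1% were. Leaving out each of the 38 libraries in turn kept all 9 calls, and the Homer1 difference stayed between 2.88 and 3.14 and that of Dlg4 between 1.06 and 1.14. In bulk tissue fewer cells of a type and less RNA per cell cannot be told apart. Neurons are a case in point, since the 5 pan-neuronal markers (Rbfox3 the lowest of them, none at 0) summed to 9296 to 14759 CPM in PFC and 3746 to 5241 in Hypo, a log2 difference of 1.22 with no overlap. Oligodendrocyte markers went the other way, at 873 to 3124 and 2965 to 5229 CPM. RNA integrity (RIN) had a median of 7.6 in PFC and 8.95 in Hypo, and was a covariate of the test.

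As a description, chosen after the values above were seen, each library's scaffold level was divided by its own pan-neuronal sum. On that scale Homer1 was still 1.92 higher in PFC (log2) and Dlgap1 1.56, with no overlap between the tissues for either gene. Dlgap3 was 1.42 higher, Shank3 0.84, Shank1 0.73 and Shank2 0.57, with overlapping libraries. The Dlg genes were close to level, at 0.16 for Dlg2, -0.091 for Dlg4 and -0.11 for Dlg3. The plot of tissue differences shows both scales side by side.

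**Figure D2:**
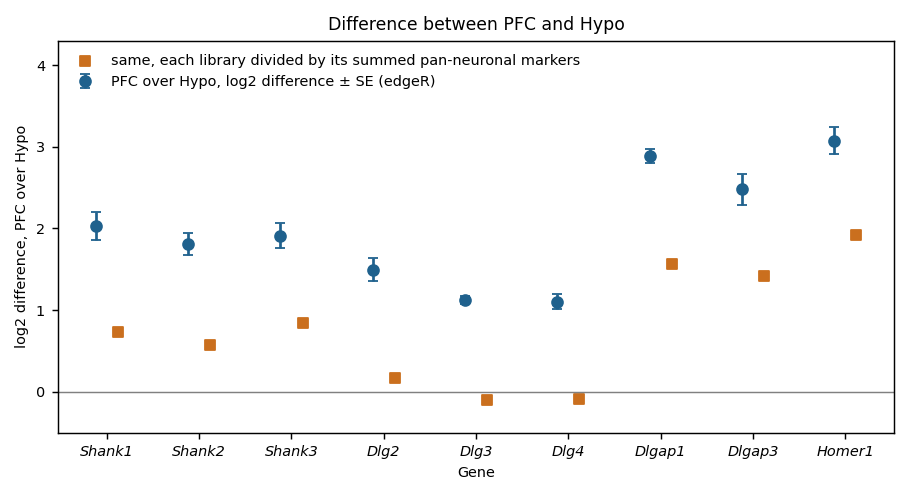
Log2 difference between PFC (20 libraries) and Hypo (18 libraries) for each scaffold gene. Circles with SE bars are the edgeR estimates on CPM, and squares are differences of mean log2 levels after each library was divided by its summed pan-neuronal markers; Homer1 and Dlgap1 keep the highest squares, and the squares of Dlg2, Dlg3 and Dlg4 lie near 0.

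The other genes of the postsynaptic density were more mixed. Of 43 listed genes 42 were tested, of which 30 were called higher in PFC and 4 lower, where 3999 and 4325 of all 12494 genes were, with a median log2 difference of 0.70, where the 9 scaffold genes had a median of 1.91 and all genes tested -0.024. The 2 remaining SAPAP genes (Dlgap2 and Dlgap4) were both higher, as were 6 of 8 other membrane-associated guanylate kinases, 10 of 12 kinases and GTPase regulators, and 11 of 18 other adaptors. The genes of smallest p that were higher were Lzts1 (2.87), Synpo (2.91, synaptopodin of the spine apparatus), Kalrn (2.73, a guanine nucleotide exchange factor), Baiap2 (2.35) and Iqsec2 (2.08). The 4 lower genes were Dlg5 (-1.36), Magi1 (-0.45), Homer3 (-0.34) and the kinase gene Camk2d (-0.29). So 1 of the 2 other Homer genes, Homer2, was higher in PFC and 1 was lower. In WT mice 30 of the 42 were called higher and 3 lower, and in Ube3a2X mice 28 and 4.

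In the PFC, the question was whether extra Ube3a changed the scaffold genes differently in males and females. The sex by genotype interaction subtracts the female from the male log2 ratio of Ube3a2X to WT, so that a positive value means a higher ratio in males. No scaffold gene was called at an adjusted p of 0.05, by edgeR's quasi-likelihood test over 10900 genes with RIN and 2 surrogate variables as covariates, which called 0 genes in all. At an unadjusted p under 0.05, 7 of the 8 genes tested passed, 6 with a positive interaction (Shank1, Shank2, Shank3, Dlg2, Dlg4 and Dlgap3) and 1 with a negative one (Homer1). Beside those counts stand 13.5% of all genes with a positive and 11.7% with a negative interaction at the same threshold (edgeR, 10900 genes). Dlgap1 did not pass, and Dlg3 fell to the filter that removed the 15% of genes of lowest variance.

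Shank3 had the smallest p. Values are given in the order of mouse numbers 259, 262, 395, 397 and 93 (WT females), 272, 417, 420, 462 and 468 (Ube3a2X females), 245, 251, 256, 266 and 403 (WT males) and 238, 253, 258, 267 and 402 (Ube3a2X males). Its level was 330.3, 187, 242, 259 and 183 CPM in WT females and 143, 176, 164, 215 and 145 in Ube3a2X females. In males it was 216, 167, 167, 249.8 and 263 in WT and 263, 186, 295, 349.7 and 311 in Ube3a2X mice. Ube3a2X females thus lay mostly below WT females and Ube3a2X males mostly above WT males, with overlap in both sexes. The interaction was 0.82 (SE 0.23), with a 95% interval of 0.36 to 1.28 (adjusted p = 0.0958). Shank1, the SHANK gene with the highest level per length, was at 736, 525, 652, 1092 and 513 CPM in WT females and 423, 535, 461, 559.6 and 825 in Ube3a2X females. In males the WT values were 554, 487, 447, 609.7 and 729 and the Ube3a2X values 630.0, 448, 1064, 833 and 736. The highest values of the sexes were WT female 397 and Ube3a2X male 258, and the groups overlapped. Its interaction was 0.82 (SE 0.27), with an interval of 0.29 to 1.35 (adjusted p = 0.105). Shank2 had a smaller interaction of 0.32 (SE 0.15) (adjusted p = 0.183), with medians of 268 and 224 CPM in WT and Ube3a2X females and 272 and 323 in males.

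Dlgap3, a SAPAP linker, was at 371, 223, 281, 350.2 and 223 CPM in WT females and 203, 239, 194, 240.2 and 132 in Ube3a2X females. In males it was at 286, 219, 193, 269.5 and 329 in WT and 356, 199.9, 270.3, 399 and 383 in Ube3a2X mice. Its lowest value was that of Ube3a2X female 468, and the groups overlapped in both sexes. The interaction was 0.80 (SE 0.30), with an interval of 0.22 to 1.38 (adjusted p = 0.128). Dlgap1, the other SAPAP gene, had 0.096 (SE 0.076). Among the Dlg genes, Dlg4 was at 1064, 869.7, 961, 1181 and 784 CPM in WT females and 759, 877, 809.5, 979 and 723 in Ube3a2X females. In males Dlg4 was at 942, 788, 760.0, 927 and 1072 in WT and 919, 855, 1273, 1190.0 and 1070.4 in Ube3a2X mice. These groups overlapped too, with Ube3a2X male 258 highest. The Dlg4 interaction was 0.45 (SE 0.17) (adjusted p = 0.127) and that of Dlg2 0.26 (SE 0.11) (adjusted p = 0.148). Dlg3, tested without the variance filter, had -0.089 (SE 0.077).

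Homer1 ran the other way. It was at 259, 269.6, 281, 316 and 265 CPM in WT females and 324, 294, 432, 390.1 and 409 in Ube3a2X females. In males it was at 394, 362, 312, 539 and 534 in WT and 199, 398, 267, 509.7 and 473 in Ube3a2X mice. WT females were close together and low, with 4 of 5 below every Ube3a2X female, and males of both genotypes were widely spread. The interaction was -0.69 (SE 0.31), with an interval of -1.3 to -0.076 (adjusted p = 0.185). Immediate early genes, which neuronal activity induces as it does Homer1a, were also negative in 7 of 7 cases, with a median interaction of -1.02 and 0 at an unadjusted p under 0.05. Their summed level was 296 to 688 CPM in WT females, 417 to 806 in Ube3a2X females, 519 to 1463 in WT males and 219 to 1679 in Ube3a2X males, with none of the 7 at 0. Their part in the Homer1 result was not tested.

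These interactions depended on single libraries. Without WT female 397, the library of unusual base shares, 0 of 8 scaffold genes had a positive interaction at an unadjusted p under 0.05 and 1, Homer1, a negative one, where 2.65% and 2.99% of all genes did. Shank3 then had 0.38, Shank1 0.37, Dlgap3 0.23, Dlg4 0.11, Shank2 0.079 and Homer1 -0.93. The counts were 2 and 0 without Ube3a2X male 258, where 6.98% and 7.19% of all genes passed, and 2 and 0 without Ube3a2X male 238, where 6.18% passed in each direction. They were 3 and 1 without WT male 256, against 8.24% and 12.2%, and 4 and 0 without Ube3a2X female 468, against 9.76% and 11.3%. Homer1 itself kept an unadjusted p under 0.05 in 8 of the 20 refits that left out 1 library. Leaving out WT female 93 moved the values the other way, and 4 genes were then called at an adjusted p of 0.05, namely Shank3 (1.01), Dlgap3 (1.0), Shank1 (0.95) and Dlg4 (0.59), along with 1624 genes in all. Shank1 and Shank3 were called without Ube3a2X male 253 and Shank3 without Ube3a2X female 462, with 1043 genes called in all in each of these refits. With limma-voom, the test the study used, 0 scaffold genes and 0 genes in all were called on the libraries and filters used here. At an unadjusted p of 0.05, 5 positive and 1 negative scaffold genes passed, against 12.9% and 11.9% of all genes. The study itself reports many PFC genes for this interaction after FDR correction, and names Shank3 and Dlg4 among them. It kept more genes and describes fewer WT mice, and the source of the difference was not tested. With DESeq2 1 scaffold gene was called (Shank3, adjusted p = 0.025) and 646 genes in all, and 6 positive and 1 negative scaffold genes passed, against 12.8% and 14.1%.

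**Figure D3:**
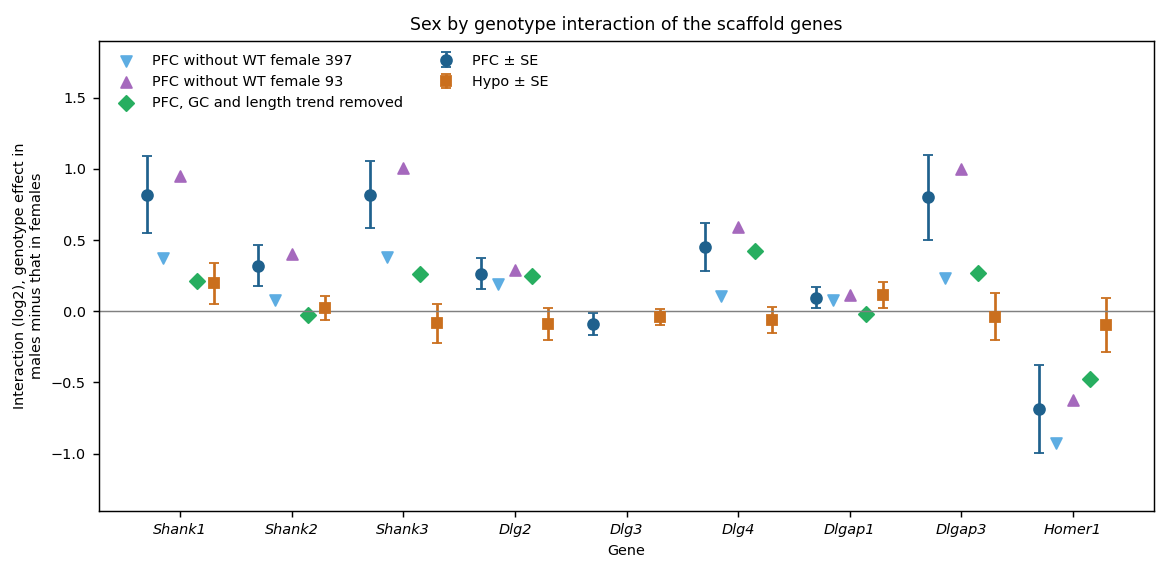
Sex by genotype interaction (log2) of each scaffold gene: PFC and Hypo estimates with SE bars, and PFC estimates without WT female 397, without WT female 93 and after removal of the trend on GC content and length. Without 397 the positive PFC values shrink toward 0 while that of Homer1 grows in size, and all Hypo values lie within 0.20 of 0; Dlg3 is from the fit without the variance filter and has no alternatives.

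Base composition moved with the interaction across the whole transcriptome in the PFC. Over 10890 genes, which do not count as independent replicates, interaction and transcript GC content had Pearson's r = 0.59, against 0.18 in Hypo. The 526 genes of at least 60% GC had a median interaction of 0.35 and those under 45% GC a median of -0.19. Shank1, Shank3 and Dlgap3, which are among the most GC-rich genes tested, were the 3 most positive scaffold genes, and the AT-rich Homer1 was the most negative. Dlg2 and Dlg4 were positive at a GC content below the median. Once each library's dependence on GC content and length had been taken out, Shank3 had 0.26, Shank1 0.21, Dlgap3 0.27 and Shank2 -0.025, Dlg4 had 0.43 and Dlg2 0.25, and Homer1 had -0.47 and no longer passed an unadjusted p of 0.05. At an unadjusted p under 0.05, 3 scaffold genes, Shank3, Dlg2 and Dlg4, had a positive and 0 a negative interaction in that fit, where 5.51% and 4.46% of all genes passed. With principal components of the quality measures in place of surrogate variables, Shank3 had 0.45, Dlg4 0.25, Dlgap3 0.19 and Shank1 0.15, and none of the 8 passed, with 1.52% and 1.77% of all genes passing.

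**Figure D4:**
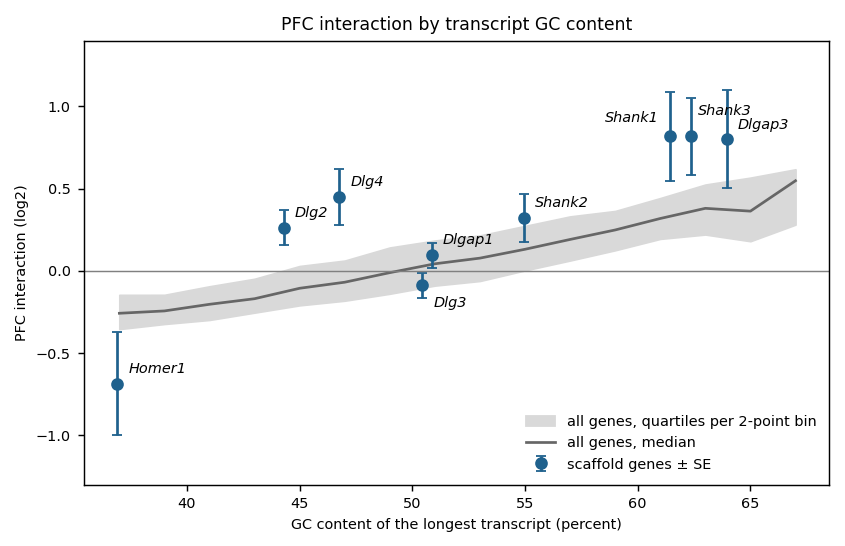
PFC interaction (log2) of the scaffold genes (points with SE bars) against the GC content of their longest transcript in percent. The line and band are the median and quartiles of all genes tested, in bins of 2 percentage points; the band rises with GC content, Shank1, Shank2, Shank3, Dlg2, Dlg4 and Dlgap3 lie above it, Homer1, at its AT-rich end, lies below it, Dlgap1 lies inside it and Dlg3 at its lower edge.

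The score for AT dropout, a measure of how far AT-rich sequence is under-represented, stands beside these values. It was 18.7 to 21.1 in WT females, 10.6 to 18.3 in Ube3a2X females, 15.8 to 19.96 in WT males and 14.4 to 22.1 in Ube3a2X males, an interaction of 4.21 (exact two-sided permutation p = 0.0849, adjusted over 9 measures 0.38). Of the 9 measures, 2 differed between PFC groups at an adjusted p of 0.05 by the exact test. By exact permutation, the intronic share was 1.12 percentage points lower in Ube3a2X than in WT (p = 0.00063, adjusted p = 0.0057), and the intergenic share had an interaction of -0.345 percentage points (p = 0.0054, adjusted p = 0.0485). Glial and endothelial marker lists had positive PFC interactions as well, in 5 of 5 oligodendrocyte genes (median 0.36, 0 at an unadjusted p under 0.05), 4 of 4 oligodendrocyte precursor genes (0.51, 3 at that threshold), 5 of 5 astrocyte genes (0.17, 1), 5 of 5 microglial genes (0.20, 2) and 4 of 4 endothelial genes (0.38, 1). Oligodendrocyte markers summed to 1195 to 2449 CPM in WT females, 1281 to 2381 in Ube3a2X females, 924 to 2055 in WT males and 873 to 3124 in Ube3a2X males. Precursor markers summed to 108 to 168, 113 to 158, 104 to 139 and 137 to 185 CPM in the same order, and none of these genes was at 0. Pan-neuronal markers had a median of -0.18, with 2 of 5 positive. Excitatory neuron markers had -0.17, with 1 of 5 positive, and inhibitory neuron markers -0.085, with 2 of 5. At an unadjusted p under 0.05, 1, 1 and 2 genes of these 3 lists passed. Beside the marker counts stand 11.4% of all genes with a positive and 14.2% with a negative interaction, from the same fit without the variance filter. What part these play in the scaffold genes' interactions was not tested.

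Within PFC females, 3 of 8 scaffold genes were lower in Ube3a2X at an unadjusted p under 0.05, against 7.37% of all genes in that direction and 14.6% in either, and 0 were called after adjustment. With the GC and length trend removed 0 of 8 passed, against 3.02% of all genes lower, and with principal components of the quality measures 1 of 8, against 4.5%. They were Dlgap3 (log2 difference -0.54 (SE 0.22)), Shank3 (-0.49 (SE 0.17)) and Shank1 (-0.46 (SE 0.20)), with adjusted edgeR p of 0.31 to 0.32. Dlg4 had -0.24, Shank2 -0.14, Dlg2 -0.064, Dlgap1 0.0082, Dlg3 0.059 and Homer1 0.38. Without WT female 259 or Ube3a2X female 468, 1 of 8 was lower, against 4.22% and 4.47% of all genes, and without WT female 397, 0 of 8 were, against 1.21%, when Dlgap3 had -0.069, Shank1 -0.081 and Shank3 -0.14. Within PFC males 1 of 8 passed, Dlg2, which was 0.20 (SE 0.074) higher in Ube3a2X (adjusted p = 0.179), against 18.3% of all genes. This count was 0 without Ube3a2X male 238, WT male 245, WT male 256 or Ube3a2X male 258, where 3.01% to 5.67% of all genes were higher at that threshold. It was 5 without Ube3a2X male 253, 4 without WT male 403 and 3 without WT female 259, each higher in Ube3a2X, where 10.2%, 10.6% and 11.7% of all genes were. Shank1 had 0.36, Shank3 0.33, Dlgap3 0.26, Dlg4 0.21, Shank2 0.18, Dlgap1 0.10, Dlg3 -0.029 and Homer1 -0.30. At the unadjusted threshold 3 of 8 were higher in males with DESeq2 and 2 of 8 with limma-voom, against 10.4% of all genes in each. With principal components of the quality measures 0 of 8 passed in males, against 1.05% of all genes higher. The sign then turned for Shank1 (-0.16), Shank3 (-0.0082), Dlgap3 (-0.20) and Shank2 (-0.0026). Both comparisons are parts of the interaction, so they are no independent support for it. Averaged over the sexes, the genotype differences of the 9 genes ran from -0.14 to 0.068, with 0 of 8 at an unadjusted p under 0.05, against 7.90% of all genes, and the sex differences averaged over genotypes from -0.040 to 0.15, again with 0 of 8, against 8.83%. DESeq2 and limma-voom called 0 of 8 in each of these 4 comparisons as well, where DESeq2 called 7 genes in all in females, 245 in males, 29 for genotype and 39 for sex, and limma-voom 1, 2, 2 and 10.

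Of the other postsynaptic density genes, 33 of 43 were tested in the PFC and 0 were called for the interaction, with 10 positive and 1 negative at an unadjusted p under 0.05, against 13.5% and 11.7% of all genes, and a median of 0.16, where the 8 scaffold genes had a median of 0.39 and all genes 0.0038. Those of smallest p were Iqsec2 (0.49), Sipa1l1 (0.43) and Begain (0.70). Iqsec2 activates Arf GTPases, Sipa1l1 acts on Rap, and Begain binds PSD-95. In females Lzts3, Iqsec2 and Sipa1l1 had the smallest p (-0.26, -0.25 and -0.25), and in males Begain, Iqsec2 and Iqsec1 (0.37, 0.24 and 0.25), with 0 called in either. For the genotype difference averaged over sexes they were Dynll1 (0.20), Lzts3 (-0.13) and Cask (0.065), and for the sex difference Lzts3 (0.16), Homer2 (0.15) and Synpo (0.16), with 0 called. At an unadjusted p under 0.05 the counts of the 33 were 9 in females, 8 in males, 2 for genotype and 1 for sex, against 14.6%, 18.3%, 7.90% and 8.83% of all genes.

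In the Hypo no scaffold gene passed even an unadjusted p of 0.05 for the interaction, against 6.90% of 11869 genes, and edgeR, limma-voom and DESeq2 called 0. Without WT female 262, 1 scaffold gene of 7 passed with a positive interaction, Shank1 (0.39), against 4.99% of all genes, and without WT female 471, 1 of 7 did, Homer1 (0.27), against 1.78%. In the order of mouse numbers 262, 398, 410 and 471 (WT females), 272, 417, 420, 462 and 468 (Ube3a2X females), 245, 251, 403 and 423 (WT males) and 238, 253, 258, 267 and 404 (Ube3a2X males), Shank3 was at 38.4, 64.9, 70.4 and 41.2 CPM in WT females and 46.5, 42.5, 64.3, 52.3 and 52.1 in Ube3a2X females. In males it was at 48.2, 66.9, 51.3 and 50.2 in WT and 42.5, 62.2, 56.1, 56.1 and 49.2 in Ube3a2X mice. All 4 groups overlapped, and the interaction was -0.085 (SE 0.14), with a 95% interval of -0.35 to 0.18. Homer1 was at 41.1, 34.8, 36.7 and 22.3 CPM in WT females, 43.7, 37.3, 35.8, 38.5 and 40.6 in Ube3a2X females, 38.5, 44.9, 50.5 and 36.5 in WT males and 43.7, 41.8, 33.7, 55.3 and 50.6 in Ube3a2X males. The lowest of these was WT female 471, and the Homer1 interaction was -0.096 (SE 0.19). The other values were 0.20 for Shank1, 0.023 for Shank2, -0.091 for Dlg2, -0.062 for Dlg4, 0.12 for Dlgap1, -0.039 for Dlgap3 and, without the variance filter, -0.039 for Dlg3. The intervals were wide for Dlgap3 (-0.36 to 0.28) and Homer1 (-0.47 to 0.28), so interactions of any size inside them were not excluded.

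The genotype differences of the scaffold genes in the Hypo were small. They ran from -0.10 to 0.034 averaged over the sexes, from -0.081 to 0.082 in females and from -0.15 to 0.12 in males, with 0 of 8 at an unadjusted p under 0.05 in each, against 5.24%, 2.93% and 9.20% of all genes. Without WT female 471, 1 of 7 passed in males, where Homer1 was higher in Ube3a2X, against 3.03% of all genes. The sex differences averaged over genotypes ran from -0.11 to 0.16, and 0 of 8 were called, against 2.30% of all genes at an adjusted p of 0.05. Homer1 had the largest sex difference, 0.16 higher in males, and without WT female 471 it became 0.22 and was called (edgeR, adjusted p = 0.044). Dlg3, outside the filter, was 0.071 higher in males (adjusted p = 0.206). DESeq2 and limma-voom called 0 of 8 in these 4 comparisons, where DESeq2 called 5 genes in all for genotype, 3 in females, 17 in males and 662 for sex, and limma-voom 1, 1, 1 and 274. Of 38 other postsynaptic density genes tested, 2 were called for sex, Baiap2 higher in males (0.32, adjusted p = 0.0112) and Cask lower (-0.15, adjusted p = 0.028). None was called for genotype or the interaction. The smallest p belonged to Pick1 (0.21), Cnksr2 (-0.22) and Begain (0.16) for the interaction, to Ppp1r9a (-0.092), Cnksr2 (-0.15) and Mpp3 (0.080) for genotype averaged over sexes, to Mpp3 (0.089), Cript (0.085) and Agap2 (-0.071) in females and to Cnksr2 (-0.26), Ppp1r9a (-0.14) and Pick1 (0.19) in males. At an unadjusted p under 0.05 the counts of the 38 were 12 for sex (10 higher and 2 lower in males, where 933 and 1185 of 11869 genes were), 0 for the interaction, 1 for genotype, 0 in females and 3 in males.

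Whether the PFC interaction differed from that in the Hypo was tested directly in 1 fit of all 38 libraries. No scaffold gene of 9 was called, and 2 passed an unadjusted p of 0.05, against 3.05% of 12494 genes, of which edgeR called 0. They were Shank3, with a difference of 0.83 (SE 0.37), and Dlg4, with 0.50 (SE 0.23), both with an adjusted p of 0.9999. Dlgap3 had 0.53, Shank1 0.50, Dlg2 0.40, Shank2 0.34, Dlg3 -0.045, Dlgap1 -0.17 and Homer1 -0.51. With a replicate block for the 13 mice that gave both tissues, Dlg2 turned to -0.075. Several of these values also depended on single libraries. Without PFC Ube3a2X male 258 Dlg2 had 0.14 and Dlgap1 -0.29, and without PFC WT female 397 Shank1 had 0.28. Without Hypo WT female 471 Shank2 had 0.16 and Dlgap1 -0.062, and without Hypo WT female 262 Dlgap3 had 0.33 and Dlg3 0.0046. Over the refits that left out 1 of the 38 libraries, Shank3 ran from 0.69 to 0.99, Dlg4 from 0.41 to 0.57 and Homer1 from -0.66 to -0.35. The genotype difference averaged over sexes differed between the tissues by -0.091 to 0.19, with 0 of 9 at an unadjusted p under 0.05, against 7.90% of all genes. DESeq2 and limma-voom called 0 of 9, and 0 genes in all, in both. Among the other postsynaptic density genes 0 of 42 were called, and the smallest p belonged to Dynll2 (-0.55), Ppp1r9b (0.53) and Agap2 (0.49) for the interaction and to Dynll1 (0.39), Lzts3 (-0.17) and Trio (-0.21) for genotype, with 1 and 0 of 42 at an unadjusted p under 0.05. The interaction and the averaged comparisons of a tissue use all of its libraries, the comparisons within females and within males use parts of them, and the fit across tissues uses the same libraries again.

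The scaffold genes also varied together between mice of the same group. Each gene's log2-CPM was taken as the deviation from its group mean, and each of the 36 pairs was tested by 100000 permutations within groups, two-sided, with adjustment over the 36 pairs, and the smallest p that this can give is 1e-05. In each case the p-values are given for r and then for rho. In the PFC, 31 of 36 pairs were positive, with a median r of 0.436, where the median over all pairs of genes was -0.0035. Of the 36, 5 had r of at least 0.8, where 2.63% of all pairs did, and 11 passed an adjusted p of 0.05 for r and 12 for rho. The highest was Shank1 with Shank2 (r = 0.892, rho = 0.893, permutation p = 1.0e-05 and 1.0e-05, adjusted p = 0.00036 and 0.00036, r = 0.902 without 2 libraries, those farthest from the median). Shank3 went with Dlg4 (r = 0.866, rho = 0.866, permutation p = 3.0e-05 and 4.0e-05, adjusted p = 0.00054 and 0.00048, r = 0.868 without 2 libraries) and with Dlgap3 (r = 0.855, rho = 0.860, permutation p = 5.0e-05 and 4.0e-05, adjusted p = 0.0006 and 0.00048, r = 0.801 without 2 libraries), and Shank2 with Dlg2 (r = 0.814, rho = 0.803, permutation p = 7.0e-05 and 0.00021, adjusted p = 0.00063 and 0.0019, r = 0.789 without 2 libraries). Dlg2 with Dlgap1 reached r = 0.831, rho = 0.594, permutation p = 0.00097 and 0.0159, adjusted p = 0.0058 and 0.0476, r = 0.648 without 2 libraries, and the lowest pair was Dlgap1 with Dlgap3 (r = -0.238). The 8 pairs with Homer1 had a median r of 0.275, 7 of them positive, and the 28 pairs without it a median of 0.515, a difference that was not tested.

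In the Hypo 23 of 36 pairs were positive, with a median r of 0.228, where the median over all pairs of genes was 0.003, and 5 pairs passed an adjusted p of 0.05 for r and 5 for rho. Shank1 went with Dlgap3 (r = 0.838, rho = 0.837, permutation p = 0.00036 and 0.00016, adjusted p = 0.0047 and 0.0019, r = 0.735 without 2 libraries), with Dlg4 (r = 0.814, rho = 0.837, permutation p = 0.00039 and 0.00051, adjusted p = 0.0047 and 0.0046, r = 0.831 without 2 libraries) and with Shank3 (r = 0.781, rho = 0.777, permutation p = 0.0032 and 0.0029, adjusted p = 0.0228 and 0.021, r = 0.747 without 2 libraries). Shank3 went with Dlgap3 (r = 0.834, rho = 0.837, permutation p = 2.0e-05 and 3.0e-05, adjusted p = 0.00072 and 0.0011, r = 0.791 without 2 libraries), which was thus among the pairs that passed in both tissues, and Shank2 with Dlg4 (r = 0.582, rho = 0.754, permutation p = 0.0012 and 0.00011, adjusted p = 0.0109 and 0.0019, r = 0.619 without 2 libraries). Shank2 with Dlg2 had r = 0.844, but its adjusted permutation p was 0.252, and r fell to 0.401 without 2 libraries, so it rested on them. Of the 36 pairs 4 had r of at least 0.8, where 7.35% of all pairs did. Whether the covariation differed between the tissues was not tested. Leaving out 1 library at a time moved the median r between 0.358 (without WT female 397) and 0.482 in PFC and between 0.175 and 0.387 (without WT female 262) in Hypo.

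**Figure D5:**
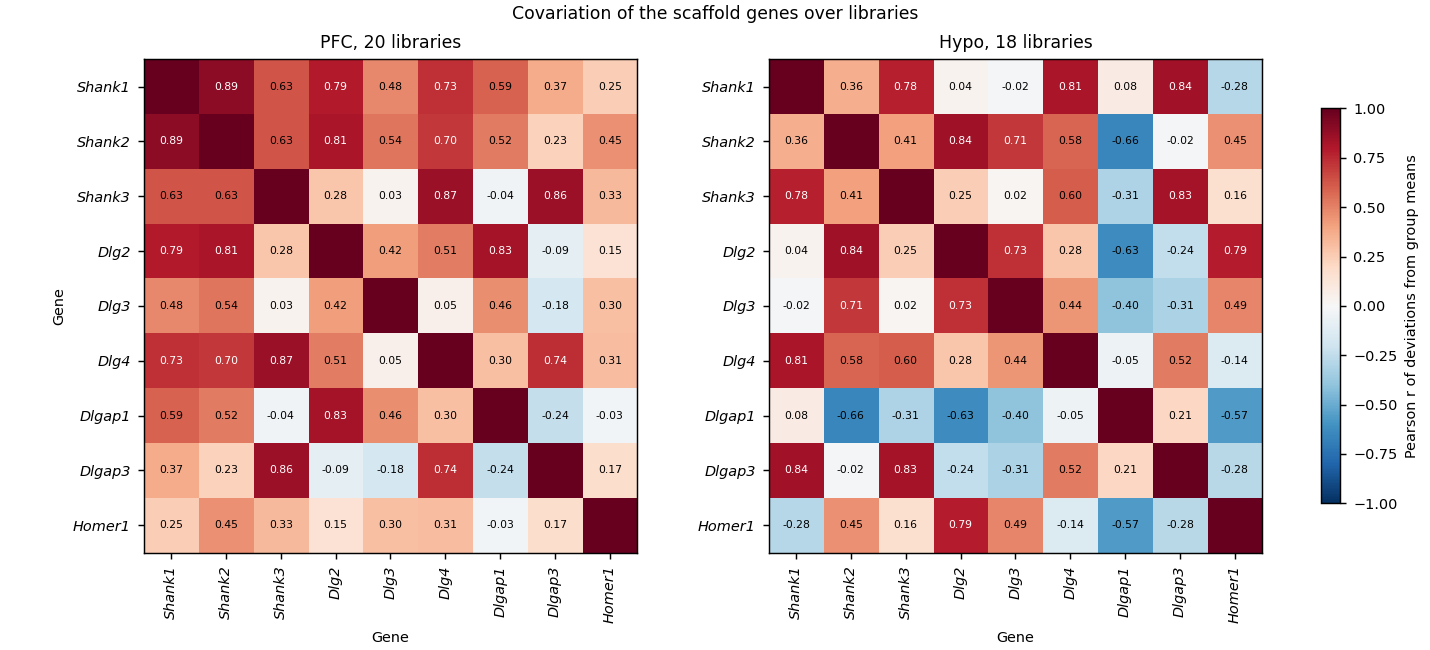
Pearson's r between scaffold genes over 20 PFC libraries (left) and 18 Hypo libraries (right), on deviations of log2-CPM from the group means. In PFC most cells are positive, and in Hypo Dlgap1 is negative with Shank2 (-0.66), Dlg2 (-0.63) and Homer1 (-0.57).

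Library quality moved with the same deviations. In the PFC, 10 of 81 correlations of a scaffold gene with 1 of 9 quality measures passed an adjusted permutation p of 0.05. The same count was not made over all genes in either tissue. It is therefore not known whether such correlations are more or less common among the scaffold genes. Dlgap1 and the coverage coefficient of variation had r = 0.895 and rho = 0.820 (adjusted p = 0.0032 and 0.0024), with r = 0.879 without the 2 farthest libraries. Dlg2 had 0.861 with the same measure (rho = 0.728, adjusted p = 0.0178 and 0.0494, 0.711 without 2), Shank1 0.679 (rho = 0.460, adjusted p = 0.0417 and 0.325, 0.475 without 2) and Shank2 0.664 (rho = 0.525, adjusted p = 0.0417 and 0.325, 0.417 without 2). The other 6 joined Shank1, Dlg2 and Dlgap1 to the coding share (r of 0.750, 0.774 and 0.852) and to the untranslated share (-0.735, -0.789 and -0.866), with rho between -0.618 and 0.577 and no adjusted p of rho under 0.05. The number of the 81 that passed was 1 without WT female 397 or Ube3a2X male 258, 2 without Ube3a2X female 468, 4 without WT male 403 and 7 to 12 without any other library, with 12 without Ube3a2X female 462. Shank3, Dlg4, Dlgap3, Dlg3 and Homer1 had none. In the Hypo 2 passed, Shank1 with AT dropout (r = 0.862, rho = 0.835, adjusted p = 0.0154 and 0.0255, 0.830 without 2) and Shank2 with the untranslated share (r = -0.933, rho = -0.882, adjusted p = 0.0154 and 0.0255, -0.854 without 2), whereas 6 passed for rho, among them 3 of Dlg4. The count for r was 0 without WT female 471, 5 without Ube3a2X female 462, WT male 251 or WT male 423, and 4 without Ube3a2X female 420, Ube3a2X male 238 or WT female 262. On residuals after RIN and 2 surrogate variables, the median r of the 36 PFC pairs was 0.258, at 0.585 over the pairs without Homer1 and 0.107 over those with it, and after removal of the GC and length trend it was 0.337.

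The genes whose deviations were most like those of each scaffold gene over the 20 PFC libraries, by Pearson's r among 12824 genes, were Rabl6 (0.937) and Dlgap4 (0.925) for Shank1, Cacng4 (0.938) for Shank2, and Crtc1 (0.971) and Tmcc2 (0.957) for Shank3. Dlg4 had Ppp1r9b (0.950), the spine protein gene spinophilin, and Ddn (0.950), dendrin. Dlg2 had Sbf2 (0.978) and Zfp106 (0.978), and Dlg3 Car10 (0.884) and Arhgap32 (0.880). Dlgap1 had Gm14325 (0.958) and Supt16 (0.956), Dlgap3 Csnk1g2 (0.976) and Map3k10 (0.963), and Homer1 Phf21b (0.930) and Fosl2 (0.917), the latter a Fos family member. Over the 18 Hypo libraries, among 13964 genes, Shank1 had Mark4 (0.965) and Kdm6b (0.957), Shank2 Rimbp2 (0.974) and Cacna1b (0.972), Shank3 Apc2 (0.952) and Ahdc1 (0.950), Dlg2 Dok6 (0.986) and Ttbk2 (0.986) and Dlg3 Pspc1 (0.918) and Cobl (0.916). Dlg4 had Plcb3 (0.897) and Dhx38 (0.882), Dlgap1 Hepacam (0.933) and Gtf2f1 (0.917), Dlgap3 Nyap1 (0.987) and Map3k10 (0.981) and Homer1 Dr1 (0.978) and Zfp882 (0.968). Map3k10 was thus named for Dlgap3 in both tissues. How crowded each pattern was differed, since 0.148% of PFC genes had r of at least 0.8 with Homer1 and 6.84% with Dlgap1, and in Hypo 20.5% had it with Dlg2, whose libraries include the low WT female 471. These are descriptions over libraries that share tissue, depth and base composition, and carry no test.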

How the data were processed

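RNA was measured by paired-end sequencing of stranded mRNA libraries from 20 PFC and 18 Hypo samples. The authors used STAR for alignment and featureCounts for counting, on mm10 (GRCm38), per the submitters' processing notes, and used the GENCODE v24 mouse annotation per the study's methods; the tool versions were not given in the sources used here. The deposited values were raw read counts per gene. The authors also deposited quality measures per library, namely the RIN score, the fraction of bases in coding, untranslated, intronic and intergenic regions, the ratio measures of coverage variation and of 5 prime to 3 prime bias, the count of aligned reads and the AT dropout score.

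Genes under 100 reads in at least 2 libraries were left out of the count table, as was, within a tissue, the 15% of lowest variance. Each tissue was fitted by edgeR 4.0.16 in R 4.3.3 (TMM scaling, robust quasi-likelihood test, Benjamini-Hochberg adjustment, calls at an adjusted p of 0.05), with RIN and 2 surrogate variables (sva 3.50.0) as covariates. Tissues were compared in 1 fit of 38 libraries with RIN. limma 3.58.1 (voom, the method of the study) and DESeq2 1.42.0 were alternatives, with other scalings, filters, covariates and adjustments, a correction for GC content and length, and leaving out each library. Levels are CPM after TMM scaling, and their log2 values carry no prior count. The log2-CPM used for covariation, the variance filter and the surrogate variables had a prior count of 2. Intervals are the estimate ± 1.96 SE. GC content and exon length came from GENCODE vM21, which matched 53905 of 54165 genes.

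Replicates were different mice, and libraries were grouped by the labels. Of 25 mice, 13 gave both tissues. The deviations of the paired libraries had r from -0.55 to 0.41 (median -0.056), and the pairing comes from the mouse numbers in the labels. The scaffold genes and the lists of other genes were chosen with earlier results of these data known. All 9 scaffold genes are named in each comparison, as ranges where their values were small. Of 43 other postsynaptic density genes, those named were up to 5 in each direction with the smallest p among the called, or the 3 with the smallest p where none was called. Like genes were the 2 with the highest r, of which 1 is not reported here.

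Data were simulated for the PFC interaction over 12824 genes, with 67 genes changed by 0.5 (log2), 67 by 0.8 and 66 by 1. Of those that passed the low-count filter again, edgeR called 19.4%, 84.8% and 98.4%, and it called 5 unchanged genes. Every simulated gene had a dispersion of 0.02, and the libraries had no differences of quality. The scaffold genes had interaction SE of up to 0.31 (Homer1), so these shares do not carry over to them. Depth was 36.9 to 381 M counted reads per library. No comparison columns of the authors were used.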

Additional observations from a re-analysis of the deposited data

Results flagged for a closer look

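In 9 of the 72 sets of libraries looked at (9 genes in 8 groups of 4 or 5 libraries), 1 library lay far from the rest of its group in log2-CPM. The measure was the gap to the nearest library over the range of the group. With normally spread values and independent sets, chance alone would give such a library in about 1 of 20 sets. Sets that share a library, as here, are not independent. Hypo WT female 471 was far from the others for 3 genes. Shank2 was at 5.36 there, where the other WT females were at 6.23 to 6.36, Dlg2 was at 6.92 (others 7.89 to 8.08), and Dlgap1 was at 7.56, above the others (7.06 to 7.11). This library had the lowest coding share in its tissue.

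In the PFC, Ube3a2X female 468 was far above its group for Dlg2 (9.77, others 9.08 to 9.27) and for Dlg3 (8.16, others 7.91 to 7.96), and it had the most uneven coverage. WT female 397 was far above its group for Dlgap1 (10.12, others 9.69 to 9.80) and had the highest coding share. In the Hypo, Ube3a2X male 238 was far above its group for Dlg3 (7.01, others 6.81 to 6.84) and Dlgap1 (7.33, others 7.02 to 7.10). Hypo WT female 262 was far below its group for Dlgap3 (4.71, others 5.77 to 5.87) and had the lowest AT dropout score in its tissue (18.3). The part of library quality in these values was not tested.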

How the results depend on the processing

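Of 436 values of single scaffold genes under another setting, in the comparisons given gene by gene, 408 kept their direction and their side of the threshold, 25 changed sign and 3 passed the threshold. The 9 tissue differences did neither. In the other comparisons the sign changed in 15 of 73 values for genotype in Hypo males, 13 of 72 for the difference of the genotype effect between tissues, 8 of 73 for genotype averaged over sexes in each tissue, 7 of 73 for sex in Hypo, 6 of 73 for genotype in Hypo females, 2 of 73 for sex in PFC and 0 of 72 for the tissue difference within each genotype. The number of scaffold genes called for the PFC interaction was 1 with DESeq2 (646 genes in all) and 2 with Storey q-values (927 genes in all), and the median r in PFC was 0.258 on residuals after RIN and 2 surrogate variables. Without 1 library, the number called for the PFC interaction ranged from 0 to 4 and for the Hypo sex difference from 0 to 1, the correlations with quality from 1 to 12 in PFC and 0 to 5 in Hypo, the quality differences between PFC groups from 1 to 2, and the median r from 0.358 to 0.482 in PFC and 0.175 to 0.387 in Hypo.

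With the GC and length trend removed, the sign changed for the PFC interaction of Shank2 (-0.025) and Dlgap1 (-0.022), Shank2 in PFC females (0.044) and the Hypo interaction of Shank2 (-0.067), Dlgap1 (-0.056), Dlgap3 (0.023) and Homer1 (0.025). With principal components of the quality measures it changed in PFC males for Shank1 (-0.16), Shank2 (-0.0026), Shank3 (-0.0082) and Dlgap3 (-0.20), and for the Hypo interaction of Shank2 (-0.17), Shank3 (0.17) and Dlgap3 (0.41). With RIN alone it changed for Dlgap1 in the PFC interaction (-0.040), Dlg2 in PFC females (0.14) and the Hypo interaction of Shank2 (-0.0020), Shank3 (0.038) and Dlgap3 (0.20). Without filters it changed for the Hypo interaction of Shank3 (0.36), Dlgap1 (-0.025), Dlgap3 (0.42) and Homer1 (0.021) and the difference of interactions of Dlg3 (0.065). The cause was not tested.

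Leaving out 1 library changed the sign for the Hypo interaction of Shank1 (-0.0068 to 0.39), Shank2 (-0.020 to 0.059), Shank3 (-0.18 to 0.092), Dlg2 (-0.16 to 0.093), Dlgap3 (-0.19 to 0.23) and Homer1 (-0.19 to 0.27), for Shank2 (-0.22 to 0.045), Dlg4 (-0.38 to 0.037) and Dlgap1 (-0.016 to 0.042) in PFC females, and for Dlg3 in the difference of interactions (-0.097 to 0.0046).

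With a replicate block for the 13 mice that gave both tissues, 9 of 9 scaffold genes stayed higher in PFC, the difference of interactions of Dlg2 became -0.075, and no call changed. Within a tissue no paired analysis was possible because each mouse gave 1 library.

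Every scaffold gene had at least 889 reads per library.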
